A study of Ulmus pumila with 3 samples.

Results

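The miR394 and miR396 families were measured in roots of Siberian elm (Ulmus pumila) as 9 miRNA names, 1 of miR394 and 8 of miR396 (miR396a to miR396h). They were all the names that carry exactly these family numbers among the 309 named miRNAs of 3 small RNA libraries. Each library came from roots of wild-type seedlings 30 days after germination. The seedlings of the control library had no added salt. The 50 mM library came from seedlings kept at 50 mM NaCl over 6 h, and the 200 mM library from seedlings kept at 200 mM NaCl over 24 h. The study asked how root miRNAs differ under salt. Dose and time change together, so their parts cannot be told apart. Each condition has 1 library, and the sources used here do not state how many plants went into it. There is therefore no replicate error and no test between conditions, and each 95% interval covers counting error within these libraries alone.

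MicroRNAs guide the silencing of transcripts that they pair with, and a family is a set of near-identical sequences with shared targets. In Arabidopsis, miR394 acts on LCR (LEAF CURLING RESPONSIVENESS), a gene for an F-box protein, a class of proteins that marks others for degradation, and is known to take part in shoot stem cell maintenance, leaf shape and the response to salt and drought. Also in Arabidopsis, miR396 acts on genes for growth-regulating factors (GRFs), transcription factors that promote cell proliferation, and the pair is known to set the size of the dividing zone in leaves and roots. Neither LCR nor any GRF transcript was measured here, and the small RNA tables hold no gene transcript by which the tissue could be checked.

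The sequences are shown first because 7 of the 8 miR396 names differ from each other by only a few bases at their ends, and the other, miR396b, is their reverse complement. They are given 5′ to 3′ as the authors' deposited tables list them, with the seed (bases 2 to 8) in capitals. The seed serves here only to compare names.
miR394: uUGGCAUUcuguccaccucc
miR396a: uUCCACAGcuuucuugaacug
miR396c: uCCACAGCuuucuugaacug
miR396d: uUCCACAGcuuucuugaacag
miR396e: uUCCACAGcuuucuugaacgu
miR396f: uUCCACAGcuuucuugaacua
miR396g: uUCCACAGcuuucuugaacu
miR396h: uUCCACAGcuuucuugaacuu
miR396b: gUUCAAGAaagcuguggaaga

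The families share no seed. The seed of miR394 is found in 1 of the 309 names, its own, and no other name overlapped the miR394 sequence on its own or the opposite strand (16 nt or more, up to 2 mismatches). The seed UCCACAG is shared by 6 names, all of miR396 (miR396a and miR396d to miR396h). miR396c is miR396a without its first base, so that its seed is shifted by 1 base to CCACAGC. No name of another family carried any of these seeds or overlapped a miR396 sequence by the same rule.

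The 6 names with the shared seed are identical over their first 19 bases and differ only at their 3′ ends. Counted from 1 at the 5′ end of miR396a, miR396d differs by U20A, miR396e by U20G and G21U, miR396f by G21A and miR396h by G21U, while miR396g lacks the last base. miR394, miR396c and miR396g are 20 nt long and the other 6 names 21 nt. The 8 names other than miR396b begin with U, the first base of many plant miRNAs that load into AGO1, as do 63.4% of all 309 names.

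The bases of miR396b pair with miR396a without mismatch over 19 nt, and each strand is left with 2 unpaired bases at its 3′ end. This is the geometry that Dicer-like enzymes give to a miRNA duplex. No name of either family states an arm (5p or 3p), so no arm is assigned here.

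Scaled by the total of all names, miR394 stood at nearly the same level in the 3 libraries. With the other scalings described below, its ratio of 200 mM to control ranged from 0.916 to 1.31. Its counts were 649 (control), 599 (50 mM) and 708 (200 mM). Scaled to reads per 1000000 counts of all names (RPM, with no correction for length), these are 1274 RPM (95% interval 1178 to 1376), 1333 RPM (1228 to 1444) and 1298 RPM (1204 to 1397). The order was 50 mM, 200 mM, control, and the intervals of all 3 overlapped. By count, miR394 was the 50th most abundant name in the control library, the 49th at 50 mM and the 42nd at 200 mM.

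The 8 names of miR396 carried only 2 sets of counts. miR396a, miR396b and miR396c each had 50 counts without salt, 38 at 50 mM and 31 at 200 mM. miR396d to miR396h each had 42, 33 and 29. The second set therefore held 8, 5 and 2 counts fewer than the first, or 84.0%, 86.8% and 93.5% of it. The names of each set had equal counts in every library. In the first set miR396c lacks the first base of miR396a and miR396b lies on the opposite strand, and in the second set the 5 names differ at their 3′ ends.

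The 8 names are therefore treated below as at most 2 measurements, for which miR396a and miR396d stand. Equal counts were not limited to miR396. Of the 137 names with at least 20 counts in every library, 36 had the same 3 counts as another name, in 14 sets, of which miR396d to miR396h was the largest. Of 40 pairs of names that are complementary over at least 16 nt without mismatch, 8 had equal counts, 2 of them between miR396b and miR396a or miR396c. The sources used here do not state how reads were assigned to strands and to 3′ variants, and whether the names share reads was not tested.

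The level of miR396 was below that of miR394 and was ordered control, 50 mM, 200 mM. By count, with equal names given the same rank, miR396a ranked 115th, 125th and 125th and miR396d 127th, 130th and 132nd in that order. The libraries listed 293, 283 and 281 names. miR396a stood at 98.2 RPM (72.9 to 129) without salt, 84.5 RPM (59.8 to 116) at 50 mM and 56.8 RPM (38.6 to 80.7) at 200 mM. miR396d stood at 82.5 RPM (59.4 to 111), 73.4 RPM (50.5 to 103) and 53.2 RPM (35.6 to 76.3). For either name, the intervals of all 3 libraries overlapped, those of control and 200 mM included. Summed over its 8 names as listed, miR396 came to 360, 279 and 238 counts, or 707, 621 and 436 RPM, but these sums count a read more than once wherever names share it.

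**Figure D1:**
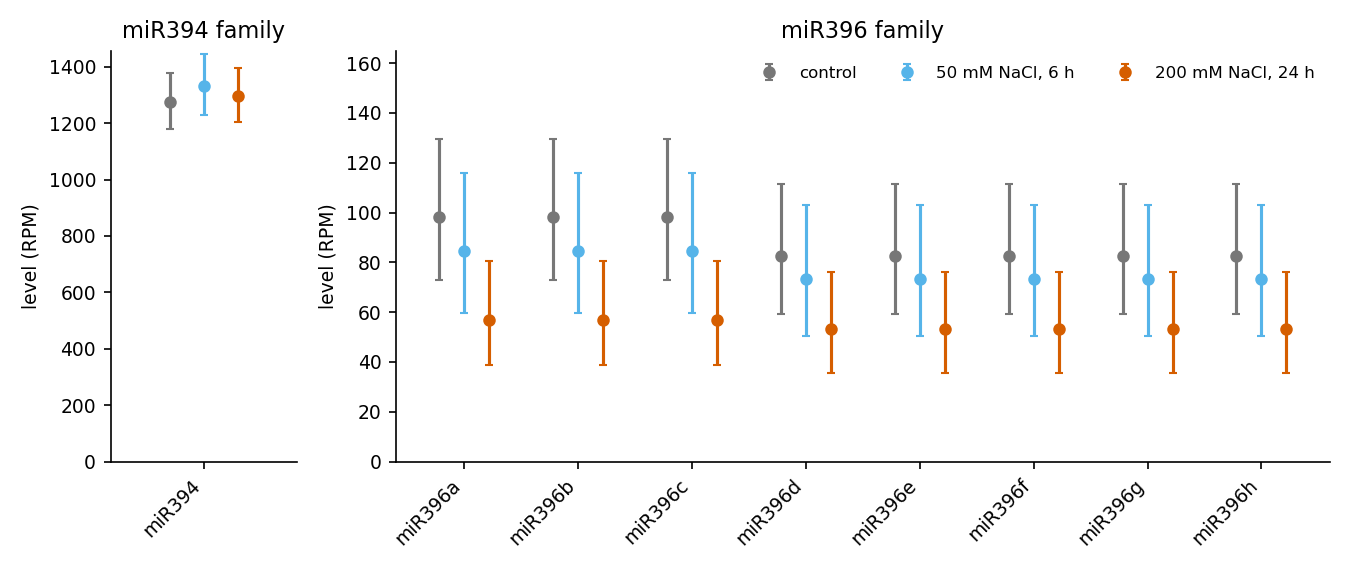
Level of each name in reads per 1000000 counts of all names (RPM, linear axes from 0; the panels have different scales) in the 3 libraries, with exact Poisson 95% intervals for counting error. miR394 lies between 1274 and 1333 RPM, and the miR396 names fall into 2 sets of equal values, each ordered control, 50 mM, 200 mM.

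At 50 mM for 6 h, neither family differed from the control library beyond counting error. miR394 had a ratio of levels of 1.05 (0.934 to 1.17). miR396a had a ratio of 0.861 (0.549 to 1.34) and miR396d of 0.890 (0.547 to 1.44). The interval of miR394 lies close around 1, while those of miR396, on far fewer counts, span ratios from 0.547 to 1.44. A call, higher or lower, required a ratio of 2 or more in that direction and an interval that excluded 1. Names listed for the pair of libraries, and with 20 counts or more in either, were compared. All 9 names entered this comparison and none was called or had an interval that excludes 1, against 1.85% called higher and 3.09% called lower among the 162 names compared, of which 51.2% had an interval that excludes 1.

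At 200 mM for 24 h, miR394 stood near its control level in RPM, and miR396a, miR396b and miR396c stood below theirs. miR394 had a ratio to control of 1.02 (0.914 to 1.13). miR396a, miR396b and miR396c had a ratio of 0.579 (0.357 to 0.924), with an interval that excludes 1, as had 71.4% of the 168 names compared. miR396d to miR396h had 0.645 (0.387 to 1.06), with an interval that includes 1. None of the 9 was called, against 3.57% called higher and 16.7% called lower among 168 names. With a ratio of 1.5 in place of 2, miR396a, miR396b and miR396c counted as lower, as did 27.4% of all compared names. In roots as a whole, fewer cells that make a miRNA and less of it in each cell cannot be told apart.

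Both families are read here against a population of names that itself lay lower at 200 mM. The median log2 ratio to control of the 168 compared names was −0.40, and that of the 8 miR396 names −0.63. The latter is simply the shared value of miR396d to miR396h, and miR396a to miR396c had −0.79. Relative to the median of all names, miR394 stood at 0.43 on the log2 scale, miR396a at −0.38 and miR396d at −0.23. Of the 168 names, 124 had a lower ratio than miR394, 40 a lower ratio than miR396a and 47 a lower ratio than miR396d. miR394 lay in the upper part of the distribution and miR396 in the lower part.

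Which of the families departed from a ratio of 1 differed between scalings. TMM factors shift the median of all names at 200 mM up by 0.34 (log2), median-of-ratios factors by 0.36 and a total without miR159a, the most counted name, by 0.15. With these, miR394 had a ratio to control of 1.29 (1.15 to 1.43), 1.31 (1.18 to 1.46) and 1.13 (1.01 to 1.26), each with an interval that excludes 1. With totals in which names of overlapping sequence and near-equal counts were joined, the ratio was 0.916 (0.822 to 1.02), on the other side of 1. miR396a had ratios of 0.731 (0.451 to 1.17), 0.745 (0.460 to 1.19) and 0.641 (0.396 to 1.02) with the same 3 scalings, each with an interval that includes 1. Of all 168 names, 6 were called higher and 28 lower. TMM factors gave 10 higher and 20 lower names, and median-of-ratios factors gave 10 and 15.

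**Figure D2:**
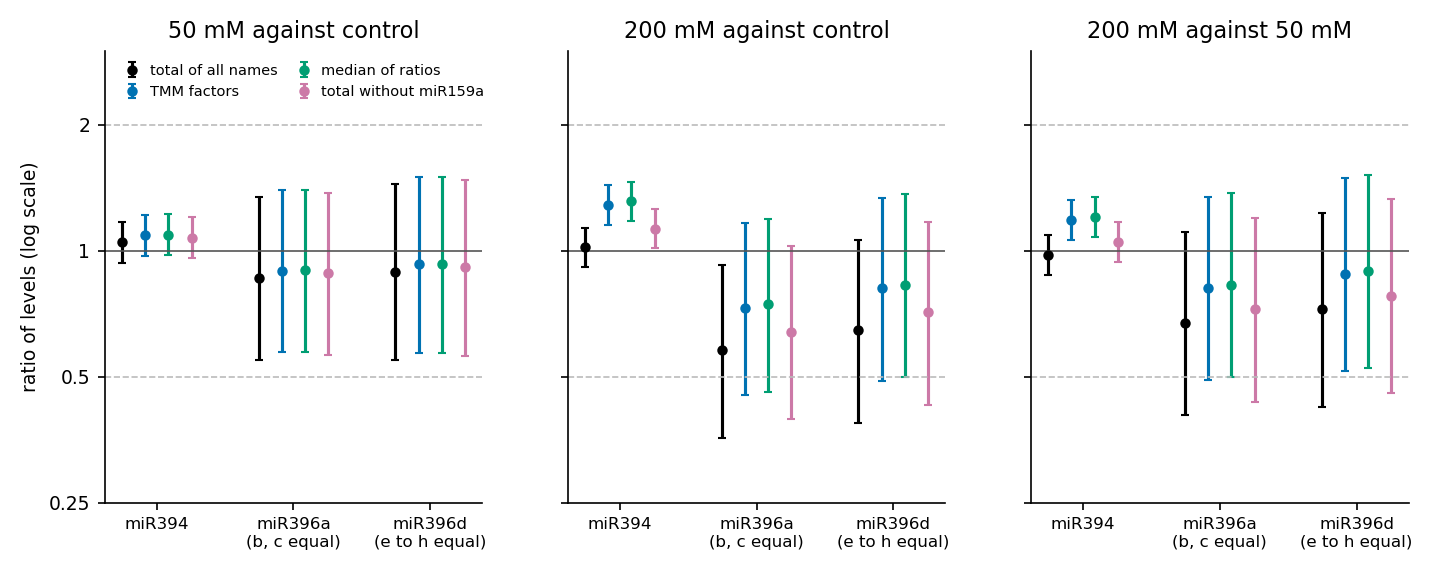
Ratio of levels (log scale) for miR394, miR396a (miR396b and miR396c are equal) and miR396d (miR396e to miR396h are equal) in the 3 comparisons, with exact 95% intervals for counting error, under 4 scalings; dashed lines mark ratios of 0.5 and 2. At 200 mM against control, miR394 moves from 1.02 to 1.31 and miR396a from 0.579 to 0.745 with median-of-ratios factors.

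A comparison of the families with each other needs no scaling, since both were counted in the same libraries. miR394 had 12.98 times the counts of miR396a without salt (9.73 to 17.7), 15.8 times at 50 mM (11.4 to 22.5) and 22.8 times at 200 mM (15.9 to 33.9). Against the sum of all miR396 names as listed, it had 1.80, 2.15 and 2.97 times the counts in the same order. That sum counts a read more than once wherever names share it, so the size of the gap depends on the unknown sharing. The sequences are 20 and 21 nt long and counts are of whole reads. Relative to miR394, miR396a stood at 0.569 of its control value in the 200 mM library (0.346 to 0.920), and miR396d at 0.633 (0.376 to 1.05). In the 50 mM library these values were 0.824 (0.518 to 1.30) and 0.851 (0.515 to 1.40). Of the 6 such intervals computed over the 3 pairs of libraries, 1 excluded a value of 1, that of miR396a at 200 mM against control. The intervals were not adjusted for their number.

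Between the salt libraries, neither family differed beyond counting error with the totals of all names. miR394 had a ratio of 0.974 (0.872 to 1.09) at 200 mM against 50 mM, which turned to 1.18 (1.06 to 1.32) with TMM factors, 1.20 (1.08 to 1.34) with median-of-ratios factors and 1.05 (0.940 to 1.17) without miR159a in the totals. miR396a had a ratio of 0.672 (0.404 to 1.11) and miR396d of 0.724 (0.424 to 1.23). Relative to miR394, miR396a stood at 0.690 of its value at 50 mM (0.410 to 1.16) and miR396d at 0.744 (0.430 to 1.28). None of the 9 names was called, against 6.29% called higher and 18.9% called lower among 159 names. None had an interval that excludes 1, against 68.6% of those names. Calls over all names, 10 higher and 30 lower, were 13 and 20 with TMM factors, while median-of-ratios factors gave 13 and 19.

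**Figure D3:**
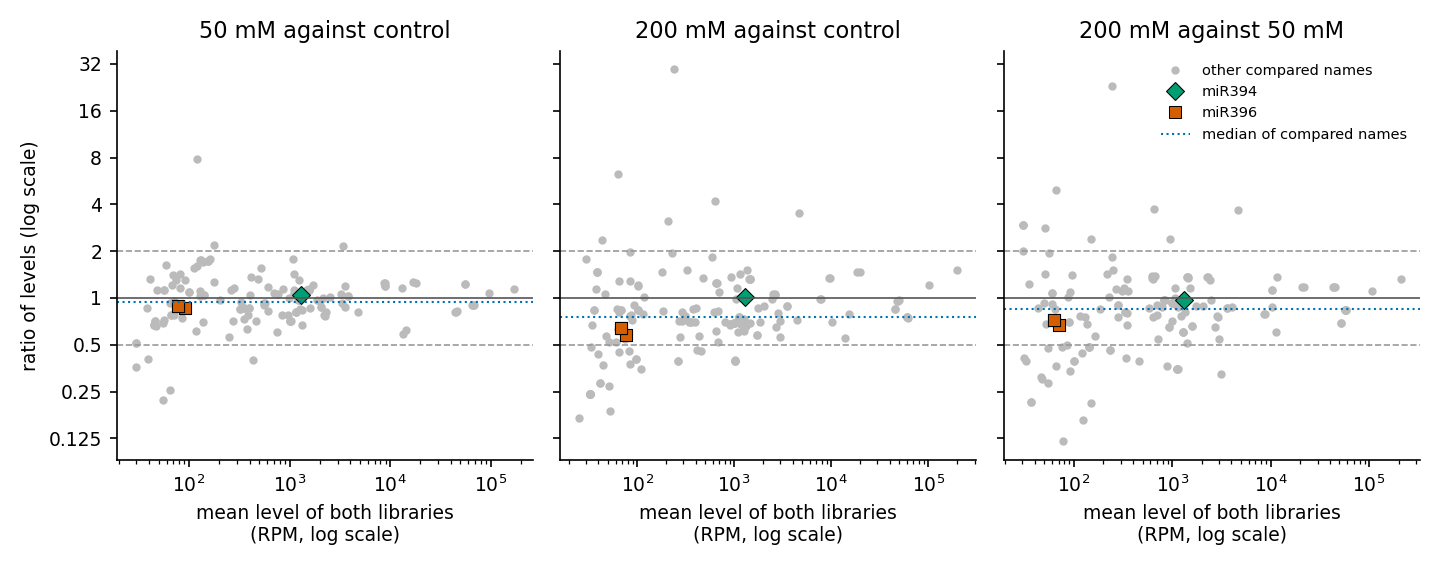
Ratio of levels (log scale) against the mean level of both libraries (RPM, log scale) for all names compared, 162, 168 and 159 from left to right, with miR394 as a green diamond and the miR396 names as orange squares that overlie each other where counts are equal. Dashed lines mark ratios of 0.5 and 2 and the dotted line the median; miR394 lies above the median and miR396 below it in each panel, all between the dashed lines.

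The miR396 family was set beside a list of 6 other conserved families that act on growth regulators. The list, which does not hold all such families, comprised miR159 (MYB factors), miR164 (NAC factors), miR166 (HD-ZIP III factors), miR171 (GRAS factors), miR319 (TCP factors) and miR393 (the TIR1/AFB auxin receptors, which are F-box proteins like LCR). Of its 86 names, 62 were compared at 200 mM against control, of which 0 were called higher and 14 lower, with a median log2 ratio of −0.40, equal to that of all names. Among all 168 names compared, 6 (3.57%) were called higher and 28 (16.7%) lower. The 14 were 7 of miR164, 6 of miR171 and 1 of miR166. Many of them had equal ratios, so they are not 14 separate measurements. miR164d to miR164h all had 0.242, and miR164b and miR164c both had 0.283. The called names of miR171 came in pairs of equal ratio (0.396, 0.242 and 0.408). The median of the 16 compared names of miR159 was 0.29 and that of the 7 of miR319 −0.17. The −0.63 of miR396d to miR396h and the −0.79 of miR396a to miR396c lay between those medians and the medians of miR171 (−1.29) and miR164 (−2.05). The median of the 16 compared names of miR166 was −0.42. This order is one of medians and does not hold for every name. Of the names not called, miR171a had a ratio of 0.617, miR171b to miR171d 0.683, miR171i 0.541 and miR164a 0.630. The ratios of miR396 were 0.579 and 0.645. For miR393, whose targets are of the same protein class as LCR, the median of 4 names was −0.26. With TMM and median-of-ratios factors the 14 lower names became 12 and 10, while the 28 of all names became 20 and 15. The medians of miR319 and miR393 turned above 0 with these factors, to 0.16 and 0.19 for miR319 and 0.077 and 0.10 for miR393. That of the miR396 names stayed below 0, at −0.30 and −0.27. At 50 mM against control, 62 names of the list were compared, with 0 called higher, 1 lower and a median of −0.11. Among all 162 names compared there, 1.85% were called higher and 3.09% lower.

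The names whose 3 levels ran most like those of miR394 were miR319c, miR403a and new-25-3p, a miRNA without a family number in the authors' tables. Names of that kind are written here as new, with the authors' running number and arm. Likeness was measured as the distance between pairs of log2 ratios to control, over 3 libraries, among 95 names of other families with at least 100 counts in each. miR319c had 1275, 1136 and 1343 counts and lay 0.072 log2 units from miR394, miR403a 0.11 and new-25-3p 0.19. For miR396a, the nearest of 96 such names were miR167e at 0.027, miR167f at 0.028 and new-5-3p at 0.044. miR167e had 1106, 856 and 684 counts, with ratios to control of 0.877 and 0.577, and the counts of miR167f were within 1 read of these. new-5-3p had ratios of 0.869 and 0.562 on 1940, 1488 and 1168 counts. With 3 libraries, this order describes the counts and no more.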

How the data were processed

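Small RNA of seedling roots was sequenced in 3 libraries, 1 per condition, from Trizol-extracted RNA with an NEBNext kit, per the labels' protocols. The sources used here do not state the trimming, aligner, mismatches, reference or strand handling. The authors deposited whole-number read counts for each name, per the file headers. In the same tables the authors deposited TPM, which was found to equal the count per 1000000 counts of the table and is called RPM. The table totals were 509280, 449522 and 545587 counts, so that 1 read is worth 1.96, 2.22 and 1.83 RPM. They are sums over names, and the number of reads sequenced is not stated in the sources used here.

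Members were found by family number in the name. Ratios of single names have exact conditional binomial (Clopper-Pearson) intervals, levels exact Poisson ones, and ratios of ratios exact conditional odds-ratio ones. The interval of a family ratio is that of its most counted name, rescaled to the family ratio. Amplified reads are not independent molecules. The 3 comparisons share libraries. As an alternative, names sharing 16 nt or more on the same or opposite strand (up to 2 mismatches), with counts within 5% or 3 reads, were joined, leaving 201 of 309 names. All 9 members were named, with the 3 most alike names per family and 6 further families. Members and lists were chosen with earlier results of these data known. The code for calls was run on simulated independent Poisson counts. These held no variation between replicates and no shared reads, so that run says nothing about either in these libraries. Tools were Python 3.11.15, scipy 1.17.1 and, for TMM factors only, edgeR 4.0.16.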

Additional observations from a re-analysis of the deposited data

How the results depend on the processing

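No paired analysis was possible because each condition has 1 library, and leaving out a library leaves no comparison. Of 111 ratios of single names and families recomputed with another scaling, the most counted name alone or joined names, 103 stayed inside the interval reported. The exceptions were miR394, as a name and as a family, at 1.29 and 1.31 for 200 mM against control and 1.18 and 1.20 for 200 mM against 50 mM, with TMM and median-of-ratios factors in that order. The 111 are not separate checks. They hold each of the 8 miR396 names, although their counts fall into sets of equal values, and miR394 both as name and as family. The intervals of miR396 were wider than the shifts between scalings, so its ratios staying inside them says little. The level of miR396 differs between the sum and a single name: with the most counted name alone it was 98.2, 84.5 and 56.8 RPM in the control, 50 mM and 200 mM libraries, against 707, 621 and 436 summed. The ratio of that sum at 200 mM against control, 0.617 (0.381 to 0.985), had an interval including 1 with the 3 other scalings and was 0.547 (0.338 to 0.874) with joined names. These intervals take their relative width from miR396a alone. That of miR396d, with the totals of all names, was 0.387 to 1.06 and includes 1. No member passed the rule for calls under the alternatives tried, except 3 miR396 names at 200 mM against control with a ratio of 1.5.

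Counts over all names moved more. At 50 mM against control the 3 higher names became 6 with at least 10 counts, 8 with no count minimum and 14 with a ratio of 1.5, and the 5 lower became 2 with at least 50 counts and 12 with a ratio of 1.5. At 200 mM against control the 6 higher became 10 with TMM or median-of-ratios factors and 12 with a ratio of 1.5, and the 28 lower became 15 with median-of-ratios factors, 13 with at least 50 counts and 46 with a ratio of 1.5. Between the salt libraries the 10 higher became 6 with at least 50 counts and the 30 lower 19 with median-of-ratios factors. Splitting miR396 by arm was not run, as no name gives an arm. Depth limits miR396: on 29 to 50 counts per name, the intervals are wide. That of miR396a at 200 mM against control, with the totals of all names, ran from 0.357 to 0.924.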
